A study of Drosophila melanogaster with 6 samples.

Results

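The Cpr genes are the Drosophila cuticle protein genes that carry the Rebers-Riddiford motif and are named for the cytological band where they lie. They were taken as every gene whose current symbol starts with Cpr and a digit and that had a probe set naming that gene alone. This gave 67 probe sets for 66 genes, out of 18769 probe sets and 11982 genes measured in the same way. The table of RefSeq genes lists 70 Cpr genes. Of the other 4, Cpr57A, Cpr65Ax1 and Cpr65Ax2 were named only in probe sets of several genes and Cpr65Ay in none. Expression was measured on Affymetrix Drosophila Genome arrays in total RNA of whole embryos at stage 11. The groups were wild type (WT) embryos of the Oregon R strain and embryos mutant for fork head (fkh), allele fkh6, whose strain the labels also give as Oregon R. There were 3 independent collections of each, aged to match and run through an embryo sorter before RNA extraction, with 1 array per collection. The fkh gene encodes the fly FoxA transcription factor, which is present in the salivary gland, in parts of the gut, in the Malpighian tubules and in some neuroblasts. RNA from these cells was therefore mixed with RNA from the rest of the embryo, and more cells of a type cannot be told apart from more RNA per cell. For in situ work the study's methods describe picking homozygous fkh6 embryos on the same kind of sorter as those without GFP, which a Twi-GFP on the TM3 balancer chromosome supplies. For the arrays the methods point to an earlier description of the sorting, which was not used here, and the background of the fkh6 chromosome was not given in the sources used here.

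The Rebers-Riddiford motif is a conserved stretch that binds chitin, the sugar polymer of the insect exoskeleton. Epidermal and tracheal cells secrete Cpr proteins into the forming cuticle, where they associate with chitin fibres, and different members serve soft and hard cuticle and different moults. In the fly embryo the cuticle is laid down late, well after stage 11, and many Cpr genes sit in tandem groups of related copies. Chitin synthesis, chitin deacetylases, chitinases and tanning enzymes act on the same structure.

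Most Cpr genes read low in both groups, and the called changes were nearly all upward in fkh mutants. A gene was called where limma's adjusted p, corrected over all 18769 probe sets, was under 0.05 and the fold change was over 1.4. By that rule 17 of 66 Cpr genes (25.8%) were higher in fkh mutants, beside 6.19% of all probe sets. Counted by gene, as the Cpr genes are, the share called higher ran from 7.19% to 8.87% between chromosome arms. Only Cpr47Ee (1.52%) was lower, beside 6.13% of all probe sets, and 48 were not called. All 3 fkh arrays lay above all 3 WT arrays in 24 Cpr genes (36.4%) and below them in 7 (10.6%), where 13.5% and 25.1% of all probe sets did so. The groups overlapped in the other 35. The median log2 fold change (fkh minus WT, as throughout) of the Cpr genes was 0.10 and that of all probe sets was -0.08. The sign was positive for 44 Cpr genes (66.7%), against 33.0% of all probe sets. At an unadjusted limma p under 0.05 and the same fold, 20 Cpr genes (30.3%) were higher and 1 was lower. The shares of all probe sets were 7.83% and 6.85%. The study's methods give a 1.4-fold change and a p under 0.05, without naming the test or saying whether p was adjusted. With cyclic loess 19 Cpr genes were called higher and 0 lower, where 6.92% and 3.68% of all probe sets were. With arrays scaled to ribosomal protein genes 18 were higher and 1 lower, beside 7.29% and 4.84%.

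A few facts of the whole series stand beside these counts. The array medians ran from 5.36 to 5.45 on the log2 scale. The level of fkh mRNA was 1.4-fold above WT in the mutants (limma adjusted p = 0.012). Whether the fkh6 lesion lowers that mRNA was not given in the sources used here, so its level does not check the labels. Genes that mark later differentiation (muscle, neuron, hemocyte, trachea and cuticle) were called higher in 13 of 17 measured, with a median log2 fold change of 3.36. Their mean level per array was 5.53 to 5.90 in WT and 8.1 to 9.0 in fkh mutants. Patterning and lineage genes that mark the stage 11 embryo were called higher in 2 of 16 (fkh itself and tll) and lower in 5. Of all probe sets 6.19% were called higher and 6.13% lower. Their mean level was 9.56 to 9.60 in WT and 9.14 to 9.51 in the mutants. Among maternal transcripts 0 of 15 were called, with means of 7.98 to 8.08 in WT and 7.71 to 8.64 in fkh arrays. Among the mutant arrays the later markers were highest in replicate 2 and lowest in replicate 3. The part of developmental age in the Cpr calls was not tested.

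Most WT values of Cpr genes lay where the arrays also read genes of adult organs. As a low signal reference, 33 measured genes of adult photoreceptors, testis, accessory gland, egg shell and yolk proteins had WT means from 3.44 to 6.88, with a median of 4.62 and a 90th percentile of 5.71. At or below 5.71 were the WT means of 57 of 66 Cpr genes and of 12 of the 17 called higher. In fkh mutants the 90th percentile of the reference was 5.81, and the means of 14 of the 17 higher genes and of 8 uncalled Cpr genes were above it. The 3 higher genes at or below it in the mutants were Cpr49Ac, Cpr50Cb and Cpr78Cb. Of the reference genes 1 was called, the yolk protein gene Yp3 (1.55-fold higher, limma adjusted p = 0.018), named after its value was seen. In fkh mutants replicate 3 was above replicate 2 in 27 of the 33. Calls of presence or absence were not part of the values, so WT values at this level are not shown to lie above the array background. The highest WT mean among the 17 higher genes was 6.15, also inside the range of the reference. The folds given for all 17 are ratios of array values. The true changes may be larger, and the order of the folds need not be that of the true changes. A low value also does not show that a gene was silent.

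As the arrays read it, the largest change was that of Cpr51A. It read 4.59, 5.27 and 4.86 in WT replicates 1 to 3 and 10.66, 10.80 and 11.20 in fkh replicates 1 to 3, the order used for every gene below. All mutant arrays stood far above WT, and the spread within each group was small beside the gap. With a WT mean of 4.91, inside the range of the reference genes, the fold of the array values was 63.1 (log2 5.98 ± 0.20 SE, limma adjusted p = 2.5e-05). Next came Cpr65Ea, with 5.87, 5.84 and 5.81 in WT and 9.15, 9.16 and 10.20 in the mutants. The WT arrays nearly coincided and fkh replicate 3 was highest (12.7-fold, log2 3.66 ± 0.27, adjusted p = 4.0e-04). Cpr66D read 4.75, 4.87 and 4.91 in WT and 8.63, 8.74 and 7.49 in the mutants. Here fkh replicate 3 was lowest, yet well above WT (10.9-fold, log2 3.44 ± 0.31, adjusted p = 8.2e-04). These 3 genes were the Cpr genes whose array values were higher by over 10-fold.

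A further 5 genes rose by over 4-fold. Cpr56F read 4.26, 4.22 and 4.17 in WT and 7.02, 7.04 and 7.30 in fkh mutants. Both groups were tight, so its 7.50-fold change carried the smallest adjusted p of the family (log2 2.91 ± 0.096, adjusted p = 2.3e-05). Cpr65Eb read 5.24, 5.05 and 4.86 in WT and 7.98, 8.19 and 7.28 in the mutants. Its lowest mutant array was replicate 3, the array in which its neighbour Cpr65Ea was highest (6.81-fold, adjusted p = 6.7e-04). Cpr64Ad read 6.13, 6.09 and 5.93 in WT and 8.62, 9.06 and 8.74 in the mutants. Cpr64Ab, in the same cluster, read 6.13, 6.19 and 6.14 in WT and 8.06, 8.16 and 8.60 in the mutants. Neither gene had overlapping groups, and the changes were 6.75-fold (adjusted p = 6.5e-05) and 4.35-fold (adjusted p = 2.7e-04). Cpr62Bc read 4.78, 4.97 and 4.78 in WT and 6.51, 6.29 and 7.76 in the mutants. Replicate 3 was the highest mutant array by over 1 (4.02-fold, log2 2.01 ± 0.36, adjusted p = 0.011). Without WT replicate 3 its adjusted p was 0.052.

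Another 4 genes rose between 2-fold and 4-fold. Cpr66Cb read 5.93, 5.87 and 5.84 in WT and 7.71, 7.87 and 7.43 in fkh mutants, a 3.45-fold change with tight groups (adjusted p = 2.7e-04). Cpr67Fa2 read 4.61, 4.41 and 4.27 in WT and 5.57, 5.63 and 7.11 in the mutants. Its replicate 3 stood 1.51 above the mean of the other mutant arrays (3.19-fold, log2 1.67 ± 0.39, adjusted p = 0.030), and without that array the log2 fold change was 1.17. Cpr65Av showed the same shape, with 5.67, 5.53 and 5.48 in WT and 6.48, 6.29 and 7.64 in the mutants (2.37-fold, SE 0.33 on the log2 scale, adjusted p = 0.043). Without fkh replicate 3 its log2 fold change was 0.83. Both calls were lost without any 1 WT array, with adjusted p of 0.083, 0.095 and 0.11 for Cpr67Fa2 and 0.12, 0.13 and 0.15 for Cpr65Av without WT replicates 1, 2 and 3, and that of Cpr65Av was lost also without fkh replicate 1 (adjusted p = 0.059). Cpr23B read 4.84, 4.89 and 4.94 in WT and 6.11, 6.15 and 5.69 in the mutants, with replicate 3 lowest (2.13-fold, adjusted p = 0.0025).

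The remaining 5 higher genes changed by under 2-fold. Cpr50Cb read 4.49, 4.48 and 4.66 in WT and 5.40, 5.52 and 5.39 in fkh mutants (1.86-fold, adjusted p = 9.5e-04). Cpr49Ac read 4.63, 4.58 and 4.72 in WT and 5.27, 5.66 and 5.42 in the mutants (1.75-fold, adjusted p = 0.0043). In these genes the groups were clearly apart although the levels were low. Cpr62Bb read 5.10, 5.31 and 5.36 in WT and 5.95, 6.04 and 5.71 in the mutants (1.56-fold, adjusted p = 0.011, and 0.050, just over the limit, without WT replicate 1). Cpr78Cb read 4.57, 4.82 and 4.62 in WT and 5.08, 5.27 and 5.68 in the mutants (1.59-fold, adjusted p = 0.030). Its call was lost without any 1 WT array (adjusted p = 0.11, 0.062 and 0.11 in turn). Cpr78E read 6.04, 5.99 and 5.92 in WT and 6.66, 6.24 and 6.87 in the mutants (1.53-fold, adjusted p = 0.041). Its mutant arrays came within 0.20 of the highest WT array, and the call held only without fkh replicate 2 among the 6 fits that each left out 1 array. With fkh replicate 1 or WT replicates 1, 2 or 3 left out, its adjusted p was 0.11, 0.11, 0.12 and 0.15, and without fkh replicate 3 its fold was 1.38, under the minimum.

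Cpr47Ee was the 1 Cpr gene called lower. It read 4.94, 5.80 and 5.51 in WT and 4.54, 4.53 and 4.64 in fkh mutants. The mutant arrays nearly coincided and the spread lay in WT, where its range of 0.87 was the widest of all Cpr genes. The change was 1.80-fold (log2 -0.85 ± 0.20, adjusted p = 0.033). The call was lost without fkh replicates 1 or 2 (adjusted p = 0.083 and 0.069) and without WT replicates 2 or 3 (adjusted p = 0.082 and 0.12). Of its 6 values only that of WT replicate 2 was above 5.71, the 90th percentile of the WT means of low signal reference genes described above.

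**Figure D1:**
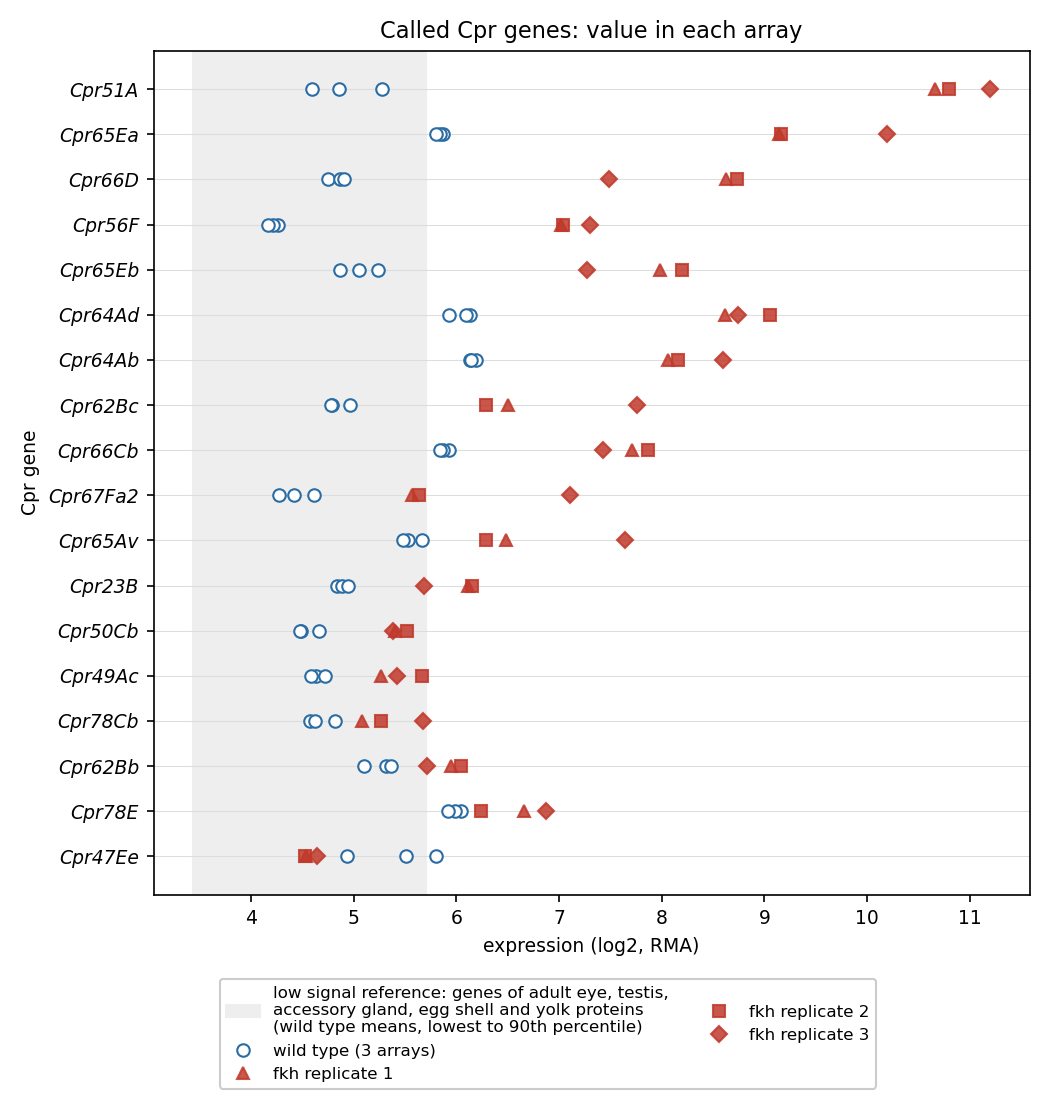
Log2 expression (horizontal axis, RMA values) of the 18 called Cpr genes (vertical axis), with 1 open circle per WT array and 1 filled mark per fkh array; the grey band runs from the lowest to the 90th percentile of WT means of the 33 low signal reference genes (3.44 to 5.71). All fkh marks lie to the right of WT except for Cpr47Ee, and the gap shrinks from Cpr51A at the top (63.1-fold) to Cpr78E (1.53-fold).

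The 48 genes not called had log2 fold changes between -0.30 and 1.4, and 41 of them were within 0.3 of 0. The largest was that of Cpr67Fa1, which read 5.28, 5.35 and 5.19 in WT and 6.16, 6.05 and 7.81 in fkh mutants (log2 1.4 ± 0.44, adjusted p = 0.075). Its groups did not overlap, and it was called higher without fkh replicate 2 (log2 1.71, adjusted p = 0.046) or 3 (log2 0.83, adjusted p = 0.0011). Without fkh replicate 1 it was not called (adjusted p = 0.076), nor without WT replicates 1, 2 or 3 (adjusted p = 0.187, 0.168 and 0.206 in turn). Cpr11A read 4.79, 4.74 and 4.70 in WT and 5.36, 7.03 and 5.68 in the mutants (log2 1.28 ± 0.39, adjusted p = 0.070). It also had no overlap, with replicate 2 far above the others, and it was called without fkh replicate 1 (log2 1.61, adjusted p = 0.040) or 2 (log2 0.78, adjusted p = 0.0065). Without fkh replicate 3 Cpr11A was not called (adjusted p = 0.058), nor without WT replicates 1, 2 or 3 (adjusted p = 0.172, 0.171 and 0.195 in turn). Cpr47Eg read 5.31, 5.61 and 5.48 in WT and 5.52, 7.85 and 6.44 in the mutants (log2 1.14 ± 0.52, adjusted p = 0.19). Mutant replicate 1 lay inside the WT range, and without it the gene was called (log2 1.68, adjusted p = 0.042). Without fkh replicate 2 the log2 fold change was 0.51 (adjusted p = 0.26), and with array weights it was also 0.51 (adjusted p = 0.36). In 2 genes the adjusted p was under 0.05 but the fold was too small, Cpr49Aa (1.38-fold higher, adjusted p = 0.0079) and Cpr30B (log2 -0.30, adjusted p = 0.041). Without fkh replicate 2 the fold of Cpr49Aa was 1.41 and it was called.

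In WT the highest Cpr means were those of Cpr30F (6.29), Cpr64Ac (6.22), Cpr64Ab (6.15), Cpr64Ad (6.05) and Cpr78E (5.98), each as its own probe set reads and without an order between genes. Cpr30F and Cpr64Ac had log2 fold changes of -0.06 and -0.13 and were not called, while the other 3 rose. The median WT mean was 4.91 among the called higher genes and 5.02 among those not called.

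Calls within a cytological band were mixed in most clusters, while differences between members of a cluster were not tested. In all, 10 clusters had 3 or more measured members. They held 42 genes, of which 10 were called higher, and the 24 genes outside them held the other 7. No cluster had all members called higher, 7 had both higher and uncalled members, and 3 (47E, 72E and 76B) had none higher. The Cpr47E cluster of 7 genes on 2R held the 1 lower gene, and its median log2 fold change was 0.04. Its other members were Cpr47Ea (0.04), Cpr47Eb (0.13), Cpr47Ec (0.02), Cpr47Ed (-0.07), Cpr47Ef (0.22) and Cpr47Eg (1.14), none of them called. Cpr47Ef was the 1 Cpr gene with several probe sets of its own, and its dimmer probe set gave -0.16, also not called. The Cpr49A cluster, with 8 genes on 2R the most numerous, had 1 higher gene, Cpr49Ac, and a median of 0.08. In that cluster Cpr49Aa had a log2 fold change of 0.47, and the others lay close to 0, at -0.17 (Cpr49Ab), -0.09 (Cpr49Ad), 0.10 (Cpr49Ae), 0.06 (Cpr49Af), 0.10 (Cpr49Ag) and -0.01 (Cpr49Ah).

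The large changes within clusters were on 3L. The Cpr65E cluster of 3 adjacent genes had the highest median, 2.77. Cpr65Ea and Cpr65Eb rose, and Cpr65Ec read 4.36, 4.48 and 5.04 in WT and 5.24, 4.99 and 7.03 in fkh mutants (log2 1.13 ± 0.52, adjusted p = 0.19). Without fkh replicate 3 the log2 fold change of Cpr65Ec was 0.49. The Cpr64A cluster of 4 adjacent genes was split, with Cpr64Ab and Cpr64Ad higher and Cpr64Aa (-0.13) and Cpr64Ac (-0.13) not called, and its median was 1.0. The Cpr62B cluster had Cpr62Bb and Cpr62Bc higher and Cpr62Ba at -0.10. The Cpr67F cluster had Cpr67Fa2 higher, Cpr67Fa1 at 1.4 and Cpr67Fb at -0.06. In the Cpr78C cluster Cpr78Cb was higher and Cpr78Ca had 0.05. The third gene there, Cpr78Cc, read 4.91, 4.89 and 4.79 in WT and 5.23, 5.53 and 6.32 in the mutants (log2 0.83 ± 0.26, adjusted p = 0.070), with no overlap between groups. It was called without fkh replicate 1 (log2 1.06, adjusted p = 0.032) or 3 (log2 0.52, adjusted p = 0.018). Without fkh replicate 2 Cpr78Cc was not called (adjusted p = 0.090), nor without WT replicates 1, 2 or 3 (adjusted p = 0.17, 0.167 and 0.205 in turn). By gene order in RefSeq, no other protein-coding gene lay inside the 62B, 64A, 65E or 67F clusters.

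The Cpr65A cluster lies among other cuticle genes with the motif. Of its 7 members 4 had a probe set of their own. Cpr65Av was higher, and Cpr65Au (-0.16), Cpr65Aw (-0.08) and Cpr65Az (0.10) were not called. Between its members RefSeq places 11 other protein-coding genes, mostly larval cuticle protein genes of the Lcp65A group. Those on the list of other motif genes described below and with a probe set of their own were Acp65Aa (-0.05), Lcp65Aa (-0.13), Lcp65Ac (0.37), Lcp65Ad (-0.09), Lcp65Ae (0.07) and Lcp65Af (-0.04). None of them was called. Lcp65Ag3, of the Lcp65A group by its symbol but not placed between these members, was called higher (14.8-fold, adjusted p = 0.0072). In the Cpr72E cluster all 3 members read slightly lower, at -0.23 (Cpr72Ea), -0.16 (Cpr72Eb) and -0.23 (Cpr72Ec), none called. The Cpr76B cluster gave -0.21 (Cpr76Ba), -0.05 (Cpr76Bb), 0.05 (Cpr76Bc) and -0.28 (Cpr76Bd), likewise not called. The pair at 50C was split, with Cpr50Cb higher and Cpr50Ca at -0.01. Each probe set is compared here only with itself across arrays, so these values are differences and not levels between neighbours.

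**Figure D2:**
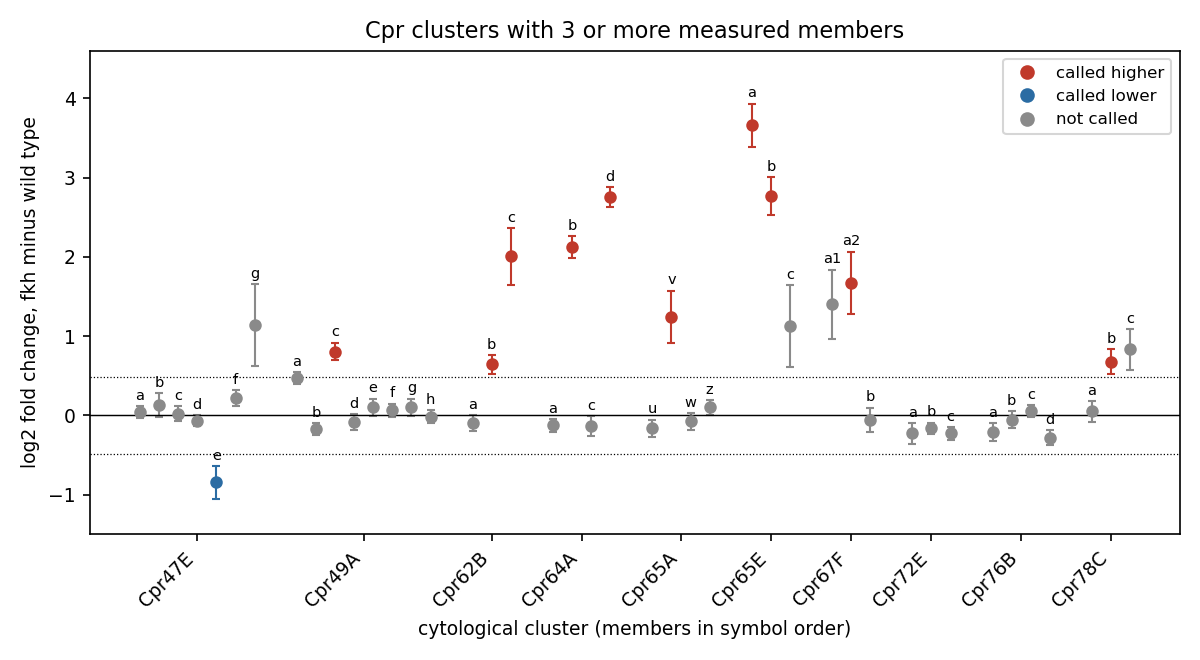
Log2 fold change (vertical axis, fkh minus WT, bars are the standard error of the limma fit, n = 3 arrays per group) of the 42 genes in 10 cytological clusters, with each gene marked by its last letters and dotted lines at the 1.4-fold minimum. Genes called higher and uncalled genes occur together in 7 clusters, and 47E holds the lower gene Cpr47Ee beside uncalled ones. The Cpr65E genes lie highest (median 2.77), and the members of 72E and 76B lie at or below 0.05.

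By chromosome arm, 12 of 32 Cpr genes on 3L were called higher, where 8.87% of all genes of that arm were. On 2R 4 of 20 were called higher and 1 lower, beside 8.11% of all genes of the arm called higher. On 2L 1 of 5 was called higher, on the X 0 of 4 and on 3R 0 of 5, beside 7.21%, 7.58% and 7.19% of all genes of those arms. With so few Cpr genes on these arms, counts of 0 or 1 are not read as a difference. At the unadjusted threshold Cpr11A, on the X, was added, together with Cpr67Fa1 and Cpr78Cc on 3L.

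The spread between mutant collections was larger than that between WT collections. The median SD over the Cpr genes was 0.082 in WT and 0.17 in fkh mutants (n = 3 each), close to 0.075 and 0.15 over all probe sets. For the called higher Cpr genes it was 0.098 and 0.29, and for all called higher probe sets 0.10 and 0.36. In 11 Cpr genes the mutant arrays spanned over 1 on the log2 scale, which no WT group did. The highest mutant array among the 17 higher genes was replicate 3 in 9, replicate 2 in 8 and replicate 1 in 0. Among all called higher probe sets it was replicate 2 in 67.3%, replicate 3 in 21.0% and replicate 1 in 11.7%.

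Replicate 3 did not move the higher genes in 1 direction. It stood over 0.5 above the mean of fkh replicates 1 and 2 in 5 of the 17, by 1.51 in Cpr67Fa2, 1.36 in Cpr62Bc, 1.25 in Cpr65Av, 1.04 in Cpr65Ea and 0.50 in Cpr78Cb. It stood over 0.5 below in 2, by -1.19 in Cpr66D and -0.81 in Cpr65Eb. Among genes not called the largest such differences were 1.92 in Cpr65Ec, 1.71 in Cpr67Fa1 and 0.94 in Cpr78Cc. Replicate 2 exceeded replicate 1 by 2.33 in Cpr47Eg, 1.67 in Cpr11A and 1.0 in Cpr67B. In the chitin and cuticle assembly genes below, replicate 2 was above replicate 3 in 23 of 30, and in the maternal transcripts in 13 of 15. In the Cpr genes replicate 3 was above replicate 2 in 46 of 66 (69.7%), beside 63.6% of all probe sets and 76.2% of the dimmer probe sets, those under the median level. The median of replicate 3 minus replicate 2 was 0.13 in the Cpr genes not called and 0.26 in those called higher, beside 0.14 in the dimmer probe sets. Without fkh replicate 3, 18 Cpr genes were called higher and 1 lower, and the share of all probe sets in that fit is not given here.

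**Figure D3:**
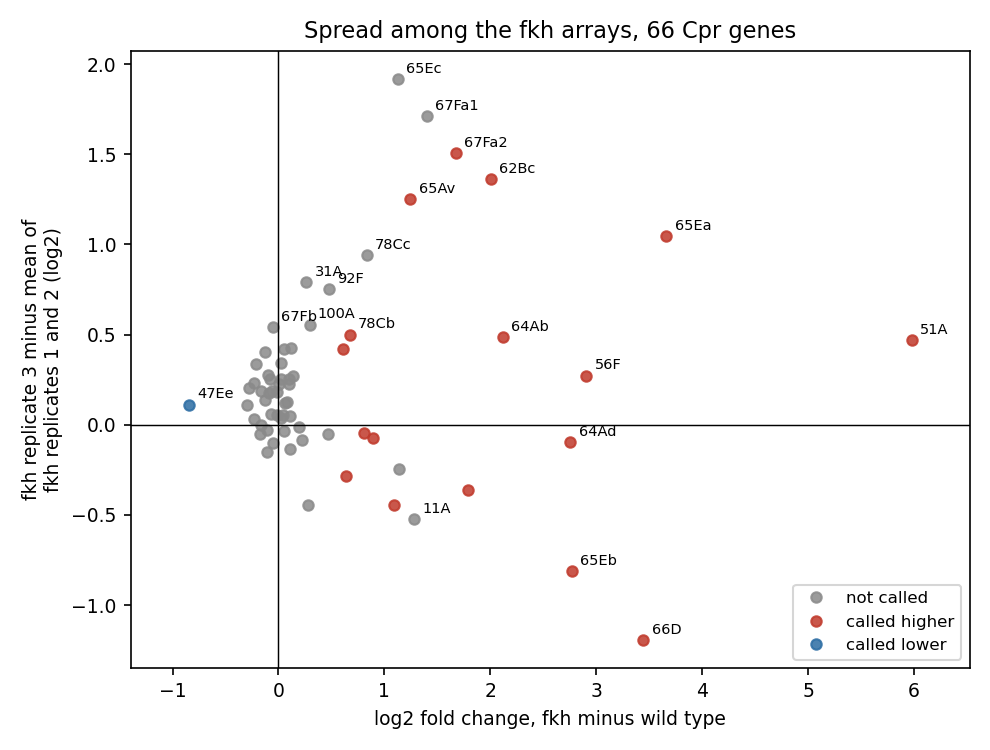
For the 66 Cpr genes, fkh replicate 3 minus the mean of fkh replicates 1 and 2 (vertical axis, log2) against the log2 fold change (horizontal axis, fkh minus WT), coloured by call and labelled with the symbol after Cpr where a point stands apart. Cpr65Ec (1.92), Cpr67Fa1 (1.71) and Cpr67Fa2 (1.51) lie highest and Cpr66D (-1.19) lowest; the vertical axis shares replicate 3 with the horizontal axis.

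Of the other cuticle protein genes, with the motif but another symbol, 15 were measured. In this list 3 were called higher and 0 lower, beside 6.19% and 6.13% of all probe sets. The median log2 fold change of the 15 was 0.02. Lcp65Ag3, a larval cuticle protein gene of the Lcp65A group, read 4.33, 4.31 and 4.30 in WT and 6.58, 9.09 and 8.95 in fkh mutants. Replicate 1 was the lowest of the mutant arrays by far (14.8-fold, adjusted p = 0.0072). Ccp84Ag and Ccp84Ac, of a cuticle gene group on 3R, rose 4.25-fold (adjusted p = 4.6e-04) and 3.74-fold (adjusted p = 9.4e-05). Edg78E, which lies between Cpr78C genes, had a log2 fold change of 0.03.

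Genes that make, modify or tan the cuticle were called higher in 20 of 30 measured and lower in 0, beside 6.19% and 6.13% of all probe sets. Their median log2 fold change was 1.68. Gasp, a chitin-binding protein of trachea and epidermis, rose 40.0-fold. The chitin synthase kkv rose 5.65-fold and the chitin deacetylases serp and verm 20.0-fold and 10.3-fold. Among the tanning genes, the laccase gene stw rose 4.54-fold (adjusted p = 0.037) and Pu, which acts in the synthesis of the cofactor of ple, rose 4.73-fold (adjusted p = 0.0073), while the enzymes ple (log2 0.09) and Ddc (log2 0.51) were not called. Gasp, serp, verm, Ddc and ple also stand among the later differentiation markers, so these lists share genes. The mean level over all Cpr genes was 5.07, 5.08 and 5.07 in the WT arrays and 5.56, 5.66 and 5.84 in the mutants. It was highest in replicate 3, where the mean of the assembly genes, 7.74, 8.13 and 7.33 in the mutants, was lowest. The mean of the low signal reference genes, 4.76, 4.65 and 4.85 in the mutants, was also highest in replicate 3. From replicate 2 to 3 the reference mean rose by 0.20 and the Cpr mean by 0.18. The difference from the assembly genes is therefore not read as particular to the Cpr genes.

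**Figure D4:**
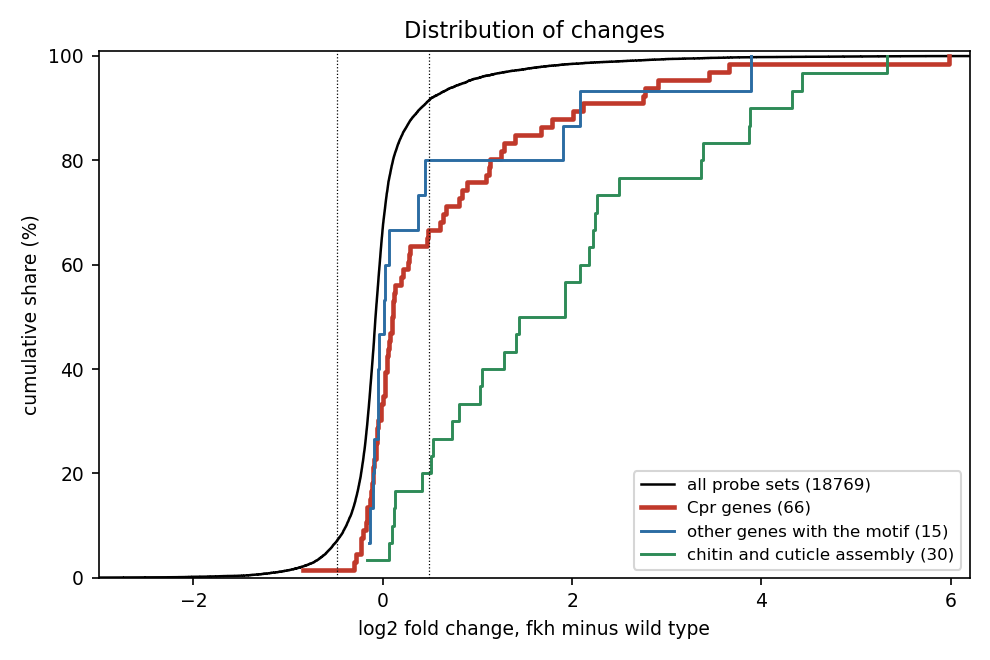
Cumulative share (vertical axis, percent) of genes or probe sets with a log2 fold change (horizontal axis, fkh minus WT) up to each value, for all 18769 probe sets, the 66 Cpr genes, 15 other genes with the motif and 30 chitin and cuticle assembly genes, with dotted lines at the 1.4-fold minimum. The Cpr line lies below that of all probe sets over nearly the whole axis (medians 0.10 and -0.08), and the assembly genes lie farthest to the right (median 1.68).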

How the data were processed

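Total RNA of 3 WT and 3 fkh6 collections was hybridised to 1 array each. The deposited log2 values are those of the authors' RMA run in Partek, a method that subtracts background, gives all arrays the same distribution and summarises each probe set. Versions were not given in the sources used here. Neither scanner files nor detection calls were used, and precision is limited by having 3 arrays per group. Of 18769 probe sets, 13647 named 1 gene, 402 several and 4720 none in the platform annotation. Of the probe sets of 1 gene, 13550 matched RefSeq (Release 6 assembly), which gave symbols, arms and gene order by start position, and no distances were used. A gene with several probe sets took the brightest. Groups were compared with limma 3.58.1 (lmFit, eBayes, R 4.3.3), two-sided, with Benjamini-Hochberg adjustment over all probe sets. The fit was also run on simulated arrays. These had the same spread in both groups, while the real mutant arrays spread more than WT. That run therefore does not show how the calls hold on these data. Called means an adjusted p under 0.05 and over 1.4-fold.

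Named in full were called members, members of clusters of 3 or more, the 5 with the highest WT mean, the 3 largest uncalled, and called genes of the list of other motif genes. Members outside this rule (Cpr67B, Cpr50Ca, Cpr30B), other genes of the marker and assembly lists and the Lcp65A genes were named after their values were seen. The members and lists (other motif genes, chitin and cuticle assembly, low signal reference, stage 11, maternal and later differentiation markers) were chosen with earlier results of these data known. The labels do not say that replicate numbers mark a shared day or batch, and the main fit did not pair the samples. Deviations of same-numbered arrays correlated at 0.072, 0.073 and -0.079. With 3 arrays per group these values cannot exclude a pairing, so a replicate block was fitted as an alternative. Alternatives changed the pooling of the spread, variance trend, array weights, normalization (cyclic loess, or ribosomal protein scaling on 40 probe sets), dim filter, replicate block, fold minimum, threshold and probe set rule, and left out each array.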

Additional observations from a re-analysis of the deposited data

Results flagged for a closer look

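Probe sets that name a Cpr gene together with another gene were not counted among the members. Of these 4, 2 had all fkh arrays above all WT arrays, beside 13.5% of all probe sets. With so few probe sets that count is not read as a difference. The probe set naming Cpr65Ax1 and Cpr65Ax2, neighbours that were measured in no other way, read 5.21, 5.24 and 5.22 in WT and 5.96, 8.19 and 8.98 in fkh mutants. Its log2 difference was 2.485 (± 0.69 SE), with fkh replicate 1 far below the other mutant arrays, and it was not called (limma adjusted p = 0.051). The probe set naming Cpr67Fa1 and Cpr67Fa2 read 5.54, 5.73 and 5.87 in WT and 7.27, 7.18 and 8.86 in the mutants. Its log2 difference was 2.057 (± 0.43 SE) and it was called higher (adjusted p = 0.019). Replicate 3 was the highest mutant array there too, as in the separate probe sets of both genes, of which that of Cpr67Fa2 was called and that of Cpr67Fa1 was not. How signal divides between the copies was not tested. The 2 probe sets naming Obp57d and Cpr57A gave log2 differences of -0.14 and -0.16 and were not called.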

How the results depend on the processing

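Over 17 alternative settings no called Cpr gene turned its direction, 9 of the 18 called genes kept their call in every setting that measured them, and 42 of 66 genes were called in none. The count of higher genes was 11 without pooling the spread, and 12 to 20 with 1 array left out. In this section calls over all probe sets are given only for the main fit and the scalings. The other counts are therefore not read as particular to the Cpr genes. The count of lower genes, 1, fell to 0 with cyclic loess (Cpr47Ee adjusted p = 0.058), without pooling and at a fold minimum of 2, was 0 without the dimmer probe sets because Cpr47Ee itself was filtered out, was 2 with no fold minimum (Cpr30B added), and was 0 to 1 with 1 array left out. The median log2 fold change of the Cpr genes was 0.0394 with array weights, 0.188 with cyclic loess, 0.171 with ribosomal protein scaling and 0.031 to 0.149 with 1 array left out, the lowest without fkh replicate 3. Without the dimmer probe sets it was 1.12 over the 24 genes left, of which 9 had WT means under the limit and passed only through their fkh arrays, so the filter itself raises this median. Scaling also moved the background: over all probe sets 50.2% of calls were higher, but 65.3% with cyclic loess (1298 higher, 690 lower) and 60.1% with ribosomal protein scaling (1368 and 908), and the median over all probe sets moved from -0.0759 to 0.00567 and -0.00851. With a replicate block 15 Cpr genes were higher and 1 lower, with Cpr65Av (adjusted p = 0.052) and Cpr78E (adjusted p = 0.057) no longer called. Without pooling, Cpr47Ee, Cpr62Bb, Cpr62Bc, Cpr65Av, Cpr67Fa2, Cpr78Cb and Cpr78E lost their calls. The causes were not tested. Precision is limited by 3 arrays a group, and most WT values lay at the level of the low signal reference.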
